A study of Mus musculus with 4 samples.

Results

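Translation factors are the proteins that start, extend and end protein synthesis on the ribosome. They were taken as every protein-coding gene of the count table whose mouse symbol begins with Eif1 to Eif6 or with Eef1 or Eef2, without the Eif2ak kinases and Eef2k, together with Pabpc1, Tpt1, Nap1l1, Rack1, Etf1 and Gspt1. This gave 69 genes of 55812 features, and 67 of them had enough reads to be tested. Their RNA was measured in primary mouse Leydig cells, the steroid-producing cells of the testis, labelled 6-month-old mouse, that received either Negative siRNA or Trps1 siRNA. Each group held 2 samples, and the labels give no strain, no siRNA sequence, no dose and no time. Whether replicate samples were separate animals or cultures is not labelled, so the p-values rest on a spread that may be technical.

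As background, initiation factors (eIFs) bring the small ribosomal subunit, the initiator tRNA and the mRNA together. eIF2 carries the initiator tRNA, eIF2B recharges eIF2 with GTP, eIF3 is the large scaffold on the small subunit, and eIF4F binds the cap of the mRNA. Elongation factors (eEFs) then deliver each aminoacyl-tRNA (eEF1) and move the ribosome along (eEF2). Many mRNAs of elongation factors, of some eIF3 subunits and of ribosomal proteins begin with a C followed by a run of C and T letters, the 5' terminal oligopyrimidine (TOP) tract, through which mTOR signalling controls their translation and stability.

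Libraries held 17844125 to 25852898 counted reads. Trps1, the targeted gene, had 38.1 and 42.2 CPM (reads scaled to a common library size) with Negative siRNA, the control, against 23.5 and 30.1 CPM with Trps1 siRNA, 0.671 of the control. Of 8 Leydig markers all were present, and 6 rose. Of 7 Sertoli cell markers Amh, Dhh and Fshr were near 0 and not tested, while Cldn11 (means of 13.2 CPM in the controls and 11.7 CPM with Trps1 siRNA), Wt1 (5.90 and 5.89 CPM), Sox9 (3.06 and 3.66 CPM) and Gata1 (16.5 and 21.9 CPM) had reads, and of these Gata1 rose. Of 8 germ cell markers Ddx4, Sycp3, Prm1, Prm2 and Tnp1 were near 0 and not tested, and Dazl had 0.869 and 1.32 CPM. Kit (82.8 and 107 CPM) and Zbtb16 (32.8 and 40.9 CPM) rose. Bulk counts do not tell which cells held the RNA of Kit and Zbtb16. Macrophage markers were present and lower with Trps1 siRNA: 11 of 18 fell, and their summed level was 3536 and 3504 CPM in the controls against 2983 and 2378 CPM. Of 4 tested smooth muscle markers 2 fell and 1 rose, and of 6 endothelial markers none passed the test, 0 also at an unadjusted p under 0.05. In bulk RNA, fewer cells of a type and less RNA per cell cannot be told apart.

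With Trps1 siRNA, 8 of the 67 tested translation factors fell and none rose, the other 59 falling short of the threshold (edgeR's quasi-likelihood test, Benjamini-Hochberg adjusted p under 0.05 over all 14701 genes tested). Over all tested genes, 6.00% were called lower and 5.24% higher, against 11.9% of the factors called lower. The 8 were the eIF2 subunit Eif2s3x, the eIF3 subunits Eif3f, Eif3i, Eif3m and Eif3g, the elongation factors Eef1g and Eef2, and the ribosome scaffold Rack1. The falls were small, to between 0.796 and 0.886 of the control. At an unadjusted p under 0.05, 14 factors (20.9%) were lower and 3 (4.48%) higher, beside 12.2% and 11.7% of all tested genes. DESeq2 and limma voom called 6 and 8 lower and none higher. The median log2 fold change of the factors was -0.03, beside 0.002 for all tested genes. The calls of Eif2s3x, Eif3f, Eif3i and Rack1 held in each of the 15 other fits, whereas those of Eef2, Eif3g, Eef1g and Eif3m were lost in some. Without sample 2 of Trps1 siRNA 4 factors were called lower, without sample 1 of Trps1 siRNA 13, and without sample 2 of Negative siRNA 5.

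**Figure D1:**
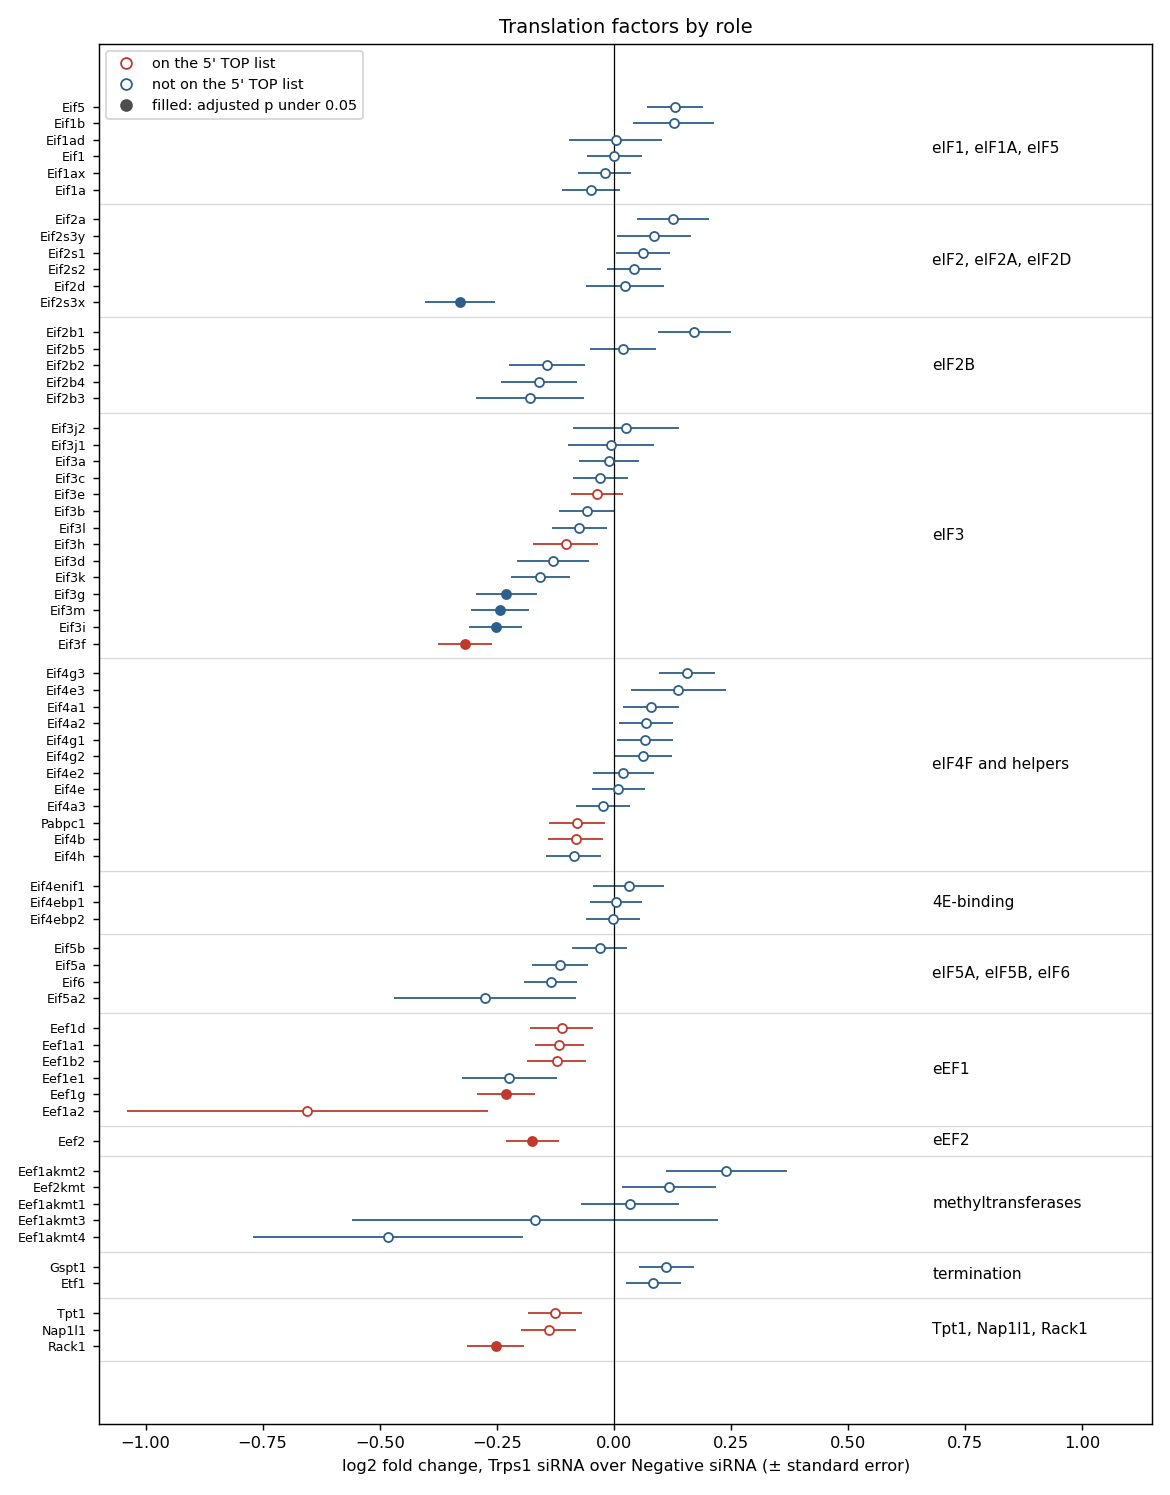
Log2 fold change (Trps1 siRNA over Negative siRNA, horizontal axis) of the 67 tested translation factors, grouped by role, with bars of 1 standard error. Filled points passed the test; the 14 genes drawn in red, those on the list of 5' TOP mRNAs, all lie left of 0, while eIF4F genes lie on both sides.

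Of the 69 genes, 51 had a start site in the RefSeq promoter table (build GRCm38.p6), and 4 of these 51 had, from the first transcribed base, a C followed by at least 4 letters that are each C or T. Only the strand with the sequence of the RNA was read. Such a tract stood at the start of 3.01% of all 27025 genes listed, among 65 cytosolic ribosomal protein genes 21.5%. The 4 are shown because 3 of them, Eif3f, Rack1 and Eif2s3x, are among the factors that fell, and Eif2s3y is shown as the Y-linked copy of Eif2s3x. Of the factors that fell, 6 had a start in this promoter table, and Eif3g, Eif3m and Eef2 had no such tract at it. Eef1g and Eif3i had no start listed. Each line runs 5′ to 3′ from 15 bases before the start to 15 bases from it on, with the tract in capitals.
Eif3f, chr7:108934400-108934429, plus strand: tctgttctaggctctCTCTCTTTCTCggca
Rack1, chr11:48800345-48800374, plus strand: cggaggccgctctttCTTTTTCTCCacagg
Eif2s3x, chrX:94212637-94212666, minus strand: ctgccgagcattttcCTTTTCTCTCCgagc
Nap1l1, chr10:111473212-111473241, plus strand: ggcgggctctcgggtCTTTTTTagcgccat
Eif2s3y, chrY:1010580-1010609, plus strand: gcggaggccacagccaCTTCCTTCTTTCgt
The tracts of Eif3f and Eif2s3x were 11 letters long, that of Rack1 10 and that of Nap1l1 7. In Eif2s3y the RefSeq start is an A and a run of 12 letters begins at the base after it. A C-led run of at least 8 C or T letters began within 10 bases of the start in 9.09% of all genes listed. Among the 51 factors 10 (19.6%) had such a run. Annotations differ on the starts: GENCODE M21 begins Eif3f at 108934417 and Rack1 at 48800332, and its model of Eif2s3x reaches to 94212862, beyond the RefSeq start at 94212651. A missing tract says only that these letters are not at this RefSeq start, as for Eef2 and Tpt1, which are known TOP mRNAs.

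Of the factors, 14 stood on a list of TOP mRNAs drawn from textbook knowledge: Eef1a1, Eef1a2, Eef1b2, Eef1d, Eef1g, Eef2, Eif3e, Eif3f, Eif3h, Eif4b, Pabpc1, Tpt1, Nap1l1 and Rack1. The list was chosen with earlier results of these data known. All 14 had a negative log2 fold change, against 49.6% of all tested genes, and 4 fell past the test (Eif3f, Rack1, Eef1g and Eef2). Their median log2 fold change was -0.12, and that of the other 53 tested factors was 0.001. Of these 53, 26 were negative, 4 fell and none rose. Eif2s3x, which has a tract at its RefSeq start, was counted among these other factors and is 1 of the 4. Of 9 listed factors with a start sequence 3 had a tract at the start, and of 42 factors off the list 1. Both Trps1 siRNA samples lay below both controls in 10 of the 14, beside 26.1% of all tested genes. The summed level of the 14 was 13440 and 13290 CPM in the controls against 12460 and 11700 CPM after Trps1 siRNA. That of the other 55 was 7864 and 7898 CPM against 7885 and 7867 CPM. The mean difference (Trps1 siRNA minus Negative siRNA) was -1286 CPM for the TOP list and -5.10 CPM for the rest, and -408 CPM of it lay in Eef1a1 alone.

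The size of this difference rested in part on 1 library, sample 2 of Trps1 siRNA: the TOP list had a median of -0.08 without that sample, when 12 of 14 genes were negative, and -0.22 without sample 1 of Trps1 siRNA, when 9 of the 14 were called lower in place of 4. Macrophage markers moved in the same order, at 84.7% of the control in sample 1 and 67.6% in sample 2, as did cytosolic ribosomal protein genes, at 91.9% and 83.7% of their summed control level. The TOP list stood at 93.2% and 87.5%. The part of the macrophage difference in these values was not tested. Trps1 itself went in the other order, with 23.5 CPM in sample 1 and 30.1 CPM in sample 2 of Trps1 siRNA. A relation between these orders was not tested. Of 81 tested cytosolic ribosomal protein genes, known as TOP mRNAs, 29 fell (35.8%, beside 6.00% of all tested genes). None rose (0 higher also at an unadjusted p under 0.05), and their median log2 fold change was -0.17. Of 10 mitochondrial translation factors none was called by edgeR, beside 6.00% of all tested genes called lower and 5.24% called higher. At an unadjusted p under 0.05, 1 (10%) was higher and none lower, beside 11.7% and 12.2% of all tested genes. Their median log2 fold change was 0.14. Both Trps1 siRNA samples lay above both controls in 7 (70%) and below both in 1 (10%). The shares of all tested genes were 26.0% and 26.1%.

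**Figure D2:**
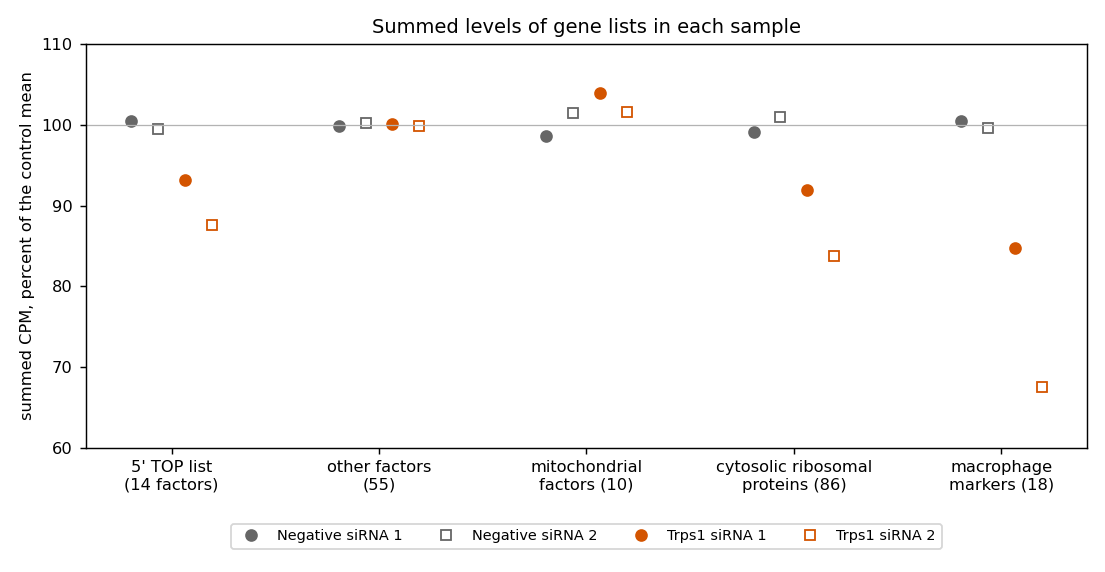
Summed CPM of each gene list in each of the 4 samples, as a percent of the mean of the control samples (vertical axis, which does not start at 0). The 14 factors on the TOP list stand at 93.2% and 87.5% with Trps1 siRNA, the other 55 at 100.1% and 99.8%, and macrophage markers at 84.7% and 67.6%.

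Among the elongation factors, Eef1a1, the carrier of aminoacyl-tRNA, had the highest level per length of any translation factor, with 2111, 2098, 1998 and 1884 CPM per kilobase of exon in the Negative siRNA samples 1 and 2 and the Trps1 siRNA samples 1 and 2. Eef2, the translocase, followed with 889, 848, 799 and 741 CPM per kilobase, then Tpt1, a calcium-binding protein that interacts with eEF1A, with 619, 628, 581 and 562, and Eef1g with 286, 290, 254 and 236. The levels of Eef1a1, Eef2, Tpt1 and Eef1g did not overlap with each other in any sample, while Eef1g and Eif5a did (Eif5a lay between 246 and 274 CPM per kilobase). Exon length here is the union over all annotated transcripts, which lowers the level per length of genes with long minor transcripts, such as Rack1.

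Eef1g, the structural subunit of the eEF1B exchange complex (chromosome 19, 8967041 to 8978479, plus strand), had 742 and 755 CPM in the control samples against 661 and 615 CPM after Trps1 siRNA. Its log2 fold change was -0.23 ± 0.06 (standard error; edgeR adjusted p = 0.0133). Eef2 (chromosome 10, 81176631 to 81182498, plus strand) had 2956 and 2819 CPM against 2657 and 2462 CPM, a log2 fold change of -0.17 ± 0.06 with an edgeR adjusted p of 0.0483, close to the threshold. In both genes the groups did not overlap, as in 26.1% of all tested genes in this direction. The call of Eef1g was lost without the second control sample (adjusted p = 0.0907) or the second Trps1 siRNA sample (0.0942), and that of Eef2 with DESeq2 (0.0521), with library totals alone (0.0668), without robust estimation (0.0615), with offsets for GC content and length (0.129) and without any of 3 samples, sample 1 of Trps1 siRNA being the exception.

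The most abundant factor did not pass the test. Eef1a1 had 5263 and 5231 CPM in the control samples against 4980 and 4698 CPM after Trps1 siRNA. The groups again did not overlap, as in 26.1% of all tested genes in this direction. Eef1a1 had a log2 fold change of -0.12 ± 0.05 (edgeR adjusted p = 0.166). Among the fits that leave out a sample, that without sample 1 of Trps1 siRNA called it, with an adjusted p of 0.0115. Eef1b2, a nucleotide exchange factor for eEF1A, had a log2 fold change of -0.12 ± 0.06 and Eef1d, another one, -0.11 ± 0.07, neither past the test. Eef1a2, the form of eEF1A known from muscle and nerve, was scarce, at 0.896 to 2.23 CPM, and its log2 fold change of -0.65 ± 0.38 did not pass the test. Eef1e1, a protein of the tRNA synthetase complex, stood at -0.22 ± 0.10 (adjusted p = 0.173). All 6 eEF1 genes thus had negative values and 1 fell, beside 49.6% of all tested genes with a negative value and 6.00% called lower. Of the 5 methyltransferases that modify elongation factors none was called by edgeR, DESeq2 or limma voom, and their log2 fold changes ran from -0.48 ± 0.29 in Eef1akmt4 to 0.24 ± 0.13 in Eef1akmt2.

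Of the 14 genes of eIF3, 4 fell and none rose, 10 missed the threshold, and 13 had a negative log2 fold change (median -0.09). The share called lower was 28.6%, beside 6.00% of all tested genes, of which 49.6% had a negative value. Eif3f, a subunit with an MPN domain (chromosome 7, 108934417 to 108942951, plus strand), had 245 and 246 CPM in the control samples against 202 and 193 CPM after Trps1 siRNA. The groups stood far apart beside the gap within each, and the log2 fold change was -0.32 ± 0.06 (edgeR adjusted p = 0.000442). Eif3i, a WD-repeat subunit (chromosome 4, 129591960 to 129600648, minus strand), had 153 and 152 CPM against 131 and 125 CPM, with a log2 fold change of -0.25 ± 0.06 (edgeR adjusted p = 0.00321). Eif3m, which pairs with other subunits in the core of eIF3 (chromosome 2, 104999656 to 105017080, minus strand), had 99.9 and 98.6 CPM against 86.9 and 80.8 CPM. Eif3g, an RNA-binding subunit that partners Eif3i (chromosome 9, 20894349 to 20898623, minus strand), had 82.1 and 85.9 CPM against 73.2 and 70.3 CPM. Both lay lower in each Trps1 siRNA sample than in either control, as did 26.1% of all tested genes. They stood at -0.24 ± 0.06 and -0.23 ± 0.06 on the log2 scale (edgeR adjusted p = 0.00966 and 0.0201).

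Values differed in size among the subunits, and differences between subunits were not tested. Of the 8 subunits of its octamer core (a, c, e, f, h, k, l and m), Eif3f and Eif3m fell, while the largest, Eif3a and Eif3c, stood at -0.01 ± 0.06 and -0.03 ± 0.06 and overlapped between the groups. Between these lay Eif3k at -0.16 ± 0.06 and Eif3l at -0.07 ± 0.06, neither past the test. The groups of Eif3k did not overlap, as in 26.1% of all tested genes in this direction. Of the other 6 genes, Eif3g and Eif3i fell, and Eif3b and Eif3d stood at -0.06 ± 0.06 and -0.13 ± 0.08 without passing the test. Eif3e and Eif3h, both on the TOP list, stood at -0.04 ± 0.06 and -0.10 ± 0.07. In Eif3h the lower mean came from 1 sample, with 199 CPM in sample 1 and 166 CPM in sample 2 of Trps1 siRNA beside 197 and 195 CPM in the controls. Eif3j1 and Eif3j2 are near-identical copies (99.4% over 2379 bases), which leaves their separate counts uncertain. The call of Eif3g was lost with DESeq2 (adjusted p = 0.0809), with GC and length offsets (0.0849) and without sample 2 of either group (0.192 for Negative siRNA and 0.142 for Trps1 siRNA). That of Eif3m was lost without the first control sample (0.0691) or the second Trps1 siRNA sample (0.137), and Eif3m shares exon sequence with Ccdc73 on the opposite strand.

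Rack1, a WD-repeat protein of the small ribosomal subunit that docks protein kinase C (chromosome 11, 48800332 to 48806434, plus strand), had 957 and 961 CPM in the control samples against 834 and 775 CPM after Trps1 siRNA. The standard deviation was 2.6 CPM in the controls and 41.6 CPM with Trps1 siRNA, each from 2 samples. The log2 fold change was -0.25 ± 0.06 (edgeR adjusted p = 0.00663). Rack1 shares exon sequence with Trim41 on the opposite strand, and no label or file header tells whether reads were assigned by strand. Tpt1 had 1473 and 1495 CPM against 1382 and 1338 CPM (-0.13 ± 0.06, edgeR adjusted p = 0.182), and the histone chaperone Nap1l1, whose start site carries a tract, had 142 and 147 CPM against 137 and 125 CPM (-0.14 ± 0.06, edgeR adjusted p = 0.138). Annotated pseudogenes similar in sequence to Nap1l1 held 7.65% of the reads of gene and copies together. Adding such reads to every factor changed no call among the factors.

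**Figure D3:**
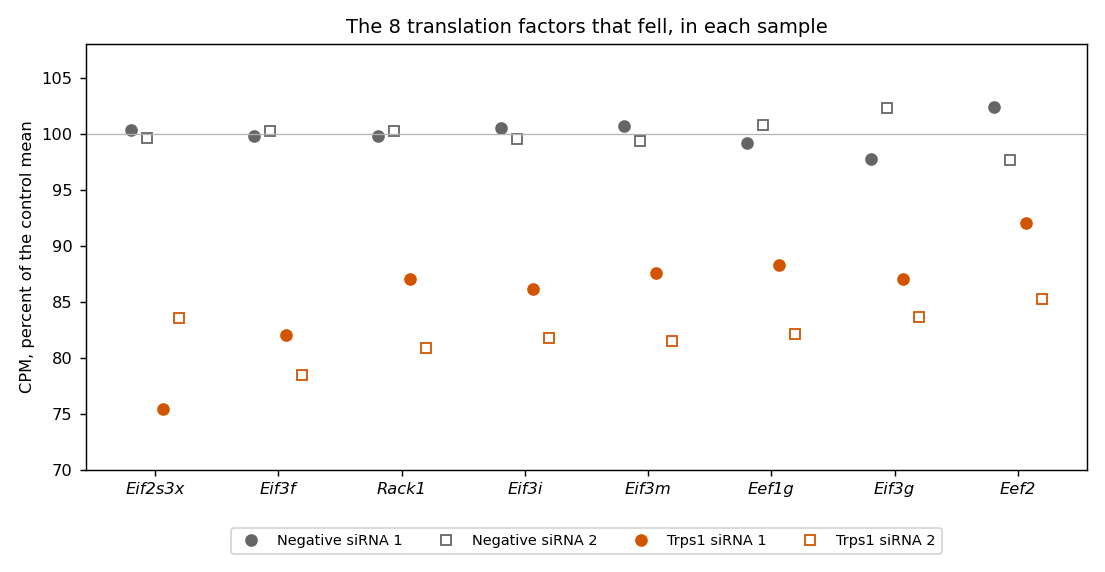
CPM of the 8 translation factors that fell, in each sample, as a percent of the mean of the control samples (vertical axis, which does not start at 0). The genes were picked by the test on these same samples. In each gene both Trps1 siRNA samples lie below both controls, as in 26.1% of all tested genes. Sample 2 of Trps1 siRNA is the lower in all but Eif2s3x.

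In eIF2, the carrier of the initiator tRNA, the gamma subunit is encoded by a gene on the X chromosome and by a copy on the Y chromosome. Eif2s3x (chromosome X, 94188707 to 94212862, minus strand) had 62.6 and 62.2 CPM in the control samples against 47.1 and 52.1 CPM after Trps1 siRNA (1258, 1591, 840 and 1133 reads). Its fall was of the same size as that of Eif3f, with a log2 fold change of -0.33 ± 0.07 (edgeR adjusted p = 0.00382), and it was the only one of the 8 in which sample 1 of Trps1 siRNA was the lower. Eif2s3y (chromosome Y, 1010543 to 1028847, plus strand) had 43.8 and 48.0 CPM against 46.5 and 50.9 CPM, and its log2 fold change of 0.09 ± 0.08 did not pass the test (edgeR adjusted p = 0.570). Reads of Eif2s3x per read of Eif2s3y were 1.43 and 1.30 in the controls and 1.01 and 1.02 with Trps1 siRNA. An exact two-sided permutation test of these ratios gave p = 0.333, the smallest that 2 samples against 2 can give (0.857 after Benjamini-Hochberg adjustment over the 9 gene pairs compared). The longest match between the transcripts had 86.3% identity over 779 bases. The alpha and beta subunits, Eif2s1 and Eif2s2, stood at 0.06 ± 0.06 and 0.04 ± 0.06. Of the 6 genes of eIF2, eIF2A and eIF2D 1 fell, beside 6.00% of all tested genes called lower.

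**Figure D4:**
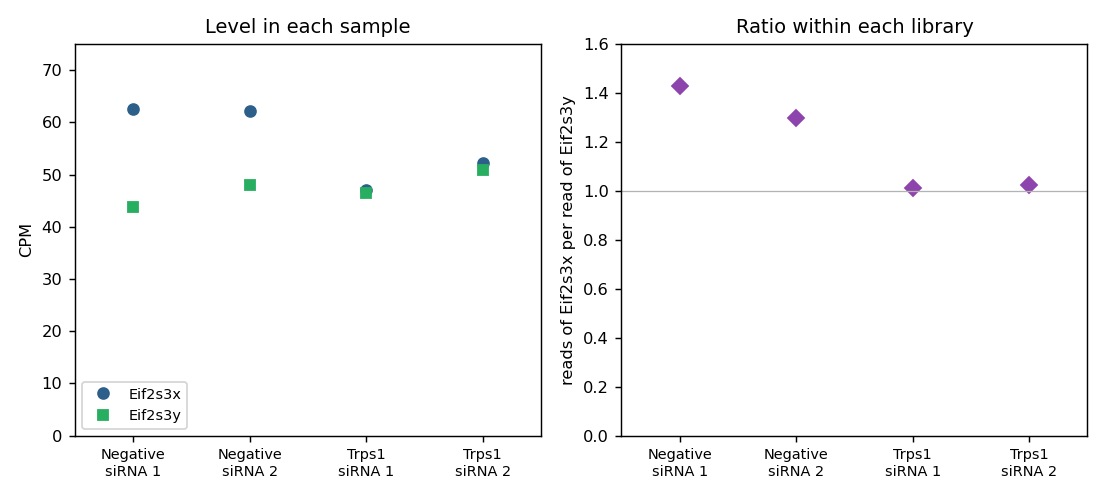
CPM of Eif2s3x and Eif2s3y in each of the 4 samples (left) and reads of Eif2s3x per read of Eif2s3y in each library (right), both axes from 0. Eif2s3x lies above Eif2s3y in the controls (ratios 1.43 and 1.30) and level with it with Trps1 siRNA (1.01 and 1.02).

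The other groups held no gene past the test. Of the 5 subunits of eIF2B, the exchange factor of eIF2, Eif2b1 stood at 0.17 ± 0.08 (edgeR adjusted p = 0.174) and Eif2b5 at 0.02 ± 0.07. Eif2b2, Eif2b3 and Eif2b4 lay between -0.14 and -0.18. Of 12 genes of eIF4F and its helpers, none was called by edgeR in the fit without a block, by DESeq2 or by limma voom, 1 was higher at an unadjusted p under 0.05, and in 6 both Trps1 siRNA samples lay above both controls (26.0% of all tested genes did). These 6 were Eif4a1, Eif4a2, Eif4e3, Eif4g1, Eif4g2 and Eif4g3. Eif4g3, a scaffold that binds the cap-binding protein, had 138 and 127 CPM in the control samples against 143 and 152 CPM after Trps1 siRNA (0.16 ± 0.06, edgeR adjusted p = 0.0935). The cap-binding protein Eif4e had 124 and 125 CPM against 127 and 123 CPM, and its repressors Eif4ebp1 and Eif4ebp2 stood at 0.0045 ± 0.06 and -0.0022 ± 0.06 on the log2 scale. Eif4b and Pabpc1, the members of this group on the TOP list, stood at -0.08 ± 0.06 each.

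Eif5, which triggers GTP hydrolysis by eIF2 at the start codon, had 267 and 279 CPM against 294 and 303 CPM. It was higher in both Trps1 siRNA samples, as were 26.0% of all tested genes, but not past the test (0.13 ± 0.06, edgeR adjusted p = 0.171). Eif1, which guards start codon choice, stood at 0.00 ± 0.06. Eif5a, which helps the ribosome over stretches such as prolines, had 651 and 647 CPM against 615 and 584 CPM (-0.12 ± 0.06, edgeR adjusted p = 0.249), and Eif6, which keeps the large subunit apart, stood at -0.14 ± 0.06 (adjusted p = 0.134). The termination factors Etf1, which reads stop codons, and Gspt1, its GTPase partner, were both higher in each Trps1 siRNA sample than in the controls. So were 26.0% of all tested genes. The 2 factors stood at 0.08 ± 0.06 and 0.11 ± 0.06 on the log2 scale, without passing the test. Of the 69 genes, Eif4e1b had no read in any sample and Eif4ebp3 had 11 in all, and both fell below the filter.

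Outside the factors, 39 genes that control translation were listed and 38 found, of which 2 fell, 3 rose and 33 did not pass the test (median log2 fold change -0.01). These shares, 5.26% lower and 7.89% higher, lie near the 6.00% and 5.24% of all tested genes, so the values below describe single genes and not the list. Those that fell were Rptor and Larp1. Rptor, the mTORC1 subunit that recruits substrates, had 68.95 and 68.21 CPM in the control samples against 50.02 and 50.47 CPM after Trps1 siRNA (-0.45 ± 0.07, edgeR adjusted p = 7.49e-05). Larp1, which binds the TOP tract downstream of mTORC1, had 202 and 185 CPM against 152 and 161 CPM (-0.30 ± 0.06, edgeR adjusted p = 9.85e-04). Both calls held in each of the 15 other fits. Mtor itself, at 121 and 113 CPM against 116 and 126 CPM, did not pass the test (0.04 ± 0.06).

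The 3 that rose were Ppp1r15a, which directs a phosphatase to eIF2 alpha, Paip2b, which binds poly(A)-binding protein, and Mlst8, an mTOR subunit. Ppp1r15a had 63.0 and 64.1 CPM against 78.2 and 77.3 CPM (0.29 ± 0.07, edgeR adjusted p = 0.00392). Paip2b stood at 0.25 ± 0.08 (edgeR adjusted p = 0.0334) and Mlst8 at 0.41 ± 0.13 (0.0497). Leaving out sample 2 of Negative siRNA or either Trps1 siRNA sample ended the call of Paip2b (adjusted p = 0.360, 0.0861 and 0.136), and leaving out any sample ended that of Mlst8 (0.0728 to 0.281). With DESeq2 neither was called (0.119 for Paip2b and 0.178 for Mlst8). The call of Paip2b was also lost with GC and length offsets (0.0586), and that of Mlst8 with limma voom (0.0611), without robust estimation (0.0656), without a low-count filter (0.0569) and with reads of near-identical pseudogenes added to the factors (0.0501). The kinases that phosphorylate eIF2 alpha (Eif2ak1 to Eif2ak4) and eEF2 (Eef2k) did not pass the test, with log2 fold changes from -0.12 in Eef2k to 0.29 in Eif2ak4.

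The authors' deposited table of 780 genes holds 5 of the 69 factors, all lower. In the authors' deposited table the log2 fold change was -0.33 for Eif2s3x, -0.32 for Eif3f, -0.25 for Rack1, -0.25 for Eif3i and -0.23 for Eef1g. Its adjusted p-values for these 5 ran from 2.69e-04 in Eif3f to 0.0220 in Eif3i, and Eif3m, Eif3g and Eef2 are not among its genes.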

How the data were processed

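The authors deposited raw counts (1 column a sample) and a table of 780 genes with group means of scaled counts (a signal per gene), log2 fold changes and p-values; the submitters' processing notes name HISAT2, featureCounts and GRCm38 (mm10). Not given in the sources used here: versions, strandedness, multi-mapping and the authors' test. Groups came from the sample titles. Symbols, positions and exon lengths came from GENCODE M21 (55141 of 55812 features matched). Counts were fitted with edgeR 4.0.16 (R 4.3.3): TMM, filterByExpr (minimum count 10), robust glmQLFit and glmQLFTest, with 2 residual degrees of freedom and a biological coefficient of variation of 0.0664. CPM used TMM-scaled library sizes. Standard errors were the log2 fold change over the root of F. The fit was tested on simulated counts. Alternatives were DESeq2 1.42.0, limma 3.58.1 (voom), RLE or unscaled libraries, another filter (none, or mean CPM of 5 or more), no robust estimation, a replicate block, loess offsets for GC and length (span 0.3), pseudogene reads added (copies matched by name, or by sequence, the latter chosen after seeing the data) and each sample left out. Start sequences came from RefSeq (GRCm38.p6). Genes named were factors and pathway genes past the test, the 4 highest per length, the smallest p of each role, and genes of opposite direction within a complex; others, such as Eif3a, Eif3h and Mtor, were chosen after their values were seen. The factors and lists were chosen with earlier results of these data known.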

Additional observations from a re-analysis of the deposited data

How the results depend on the processing

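Eif2s3x, Eif3f, Eif3i and Rack1 kept direction and call in all 15 alternatives, and the TOP list had a negative median in each. Of the factors called lower, 8 in the fit reported, leaving out a sample gave 4 to 13, and of the 4 on the TOP list 2 to 9. The median of the factors, -0.0298, was -0.017 with library totals alone, -0.0605 with GC and length offsets and -0.0558 to -0.0375 with a sample left out, and that of the TOP list -0.218 to -0.0789. For the factors off the TOP list, with a median of 0.000642 that has no clear sign, the values were 0.0134 with library totals alone, -0.00928 without a low-count filter, -0.0134 with GC and length offsets and -0.0175 to 0.00328 with a sample left out. Over all genes DESeq2 called 553 lower and 438 higher beside 882 and 770, and leaving out a sample gave 476 to 927 lower and 395 to 748 higher. No label says whether equal replicate numbers share an animal or batch. Deviations of same-numbered samples correlated at 0.0356 across genes, a single value from 2 samples a group that cannot decide this. With the replicate block 1212 of all genes were called lower and 1073 higher. In that fit 9 factors were called lower and 1 higher (Eef1a1 and Eif4g3 being added, with edgeR adjusted p of 0.0349 and 0.0296), and 5 of the TOP list were lower. Eif4enif1, at 0.0313, ranged from -0.0436 to 0.0949 with a sample left out, the negative value being that without sample 2 of Trps1 siRNA, and neither sign passed the test. The cause of these changes was not tested. Depth limited the scarce factors: Eef1a2, with 16 to 57 reads a library, had a standard error of 0.38.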

Other observations

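Eif2s3x and Eif2s3y were set beside 3 other gene pairs of the X and Y chromosomes, chosen after the values of Eif2s3x were seen. Ddx3x, a helicase that helps initiation on structured mRNAs, had 4.96 and 5.30 reads per read of Ddx3y in the controls and 4.05 and 4.11 with Trps1 siRNA, so its groups did not overlap either (exact two-sided permutation p = 0.333, the smallest this design allows). Ddx3x alone stood at -0.18 ± 0.07 on the log2 scale (edgeR adjusted p = 0.0879) and Ddx3y at 0.15 ± 0.06 (0.130), neither past the test. The demethylase genes Kdm5c and Kdm5d, with ratios of 4.71 and 4.55 against 4.39 and 4.70, and Kdm6a and Uty, with 1.83 and 1.37 against 1.54 and 1.46, overlapped between the groups (exact permutation p = 0.667 and 1).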
